A study of Mus musculus with 18 samples.

Results

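Bexarotene was compared with its vehicle in brain microglia and macrophages of young male mice, using 3 libraries of each group out of the 18 libraries of the series. The members were chosen by their labels alone: the wild-type mice aged 2 to 4 months without disease, given bexarotene or vehicle. Bexarotene was injected into the peritoneum at 5 mg/kg, with the first dose 24 hours after surgery and daily doses over the next 2 days, and cells were collected on day 3. The vehicle was 3% DMSO in saline. The sources used here do not say which surgery the young mice underwent, or whether a library pooled animals. The labels call the libraries biological replicates. The other 4 groups used, as 2 pairs, also wild-type males with 3 libraries each and the same dosing, serve for comparison: mice aged 18 to 20 months without disease, and mice of that age after ischemic stroke by middle cerebral artery occlusion. The title of the series asks about recovery after stroke and whether activation of the retinoid X receptor (RXR) reverses features of microglia and blood-derived macrophages that come with age, and the young pair shows the response to the drug without age or stroke.

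RXR is a nuclear receptor that binds DNA as a pair with a partner receptor. Partners include the liver X receptors (LXR), which sense oxysterols and switch on cholesterol export, the retinoic acid receptors (RAR), and the peroxisome proliferator-activated receptors (PPAR), which govern fatty acid use. An RXR ligand such as bexarotene can switch on the pairs with LXR and PPAR without a ligand for the partner, and in microglia and macrophages these pairs are known for control of lipid handling and of inflammatory genes.

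Cells were released from brain tissue with papain and DNase at 37 °C, neutrophils were removed with Ly6G beads, and CD11b-bearing cells were then selected, so the libraries hold microglia together with other CD11b-bearing cells. Totals were 7582511 to 11378554 counts per library with vehicle and 8446098 to 10173924 with bexarotene. All 16 homeostatic microglial markers were measured, and their summed level was 87570 to 105300 CPM (counts scaled to library size) with vehicle and 82320 to 97290 CPM with bexarotene. Neutrophil markers summed to 856 to 1791 CPM and 781 to 1845 CPM, with the highest sum in library 3 of each group. Choroid plexus and ependymal markers summed to 2617, 423 and 761 CPM with vehicle and 2108, 261 and 607 CPM with bexarotene, so library 1 was the highest of each group. Libraries with the same number deviated together: correlations of their deviations from the group means were 0.259, 0.276 and 0.140, and the first principal component of the 6 libraries (30.4% of the variance) set libraries of the same number side by side. The second component (21.1%) set the 3 bexarotene libraries on the positive side and the 3 vehicle libraries on the negative side.

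Bexarotene raised a set of genes led by cholesterol exporters, a transglutaminase and secreted or membrane-bound signalling proteins, and it lowered a smaller set that includes the oxysterol receptor Gpr183. Of 15528 genes tested, 79 changed at an adjusted p under 0.05 (0.509%), with 65 higher (0.419%) and 14 lower (0.0902%). In all 79 genes the treated and vehicle ranges were separate, as they were in 13.1% of all genes tested. Among the 79 genes, 31 rose and 1 fell by more than 2-fold, and the smallest called change was 1.306-fold. The median log2 fold change was 0.95 over the genes called higher and -0.64 over those called lower, against 0.00 over all genes tested. Without adjustment, 1300 genes (8.37%) had p under 0.05, and 50.1% of all genes tested had a fold change above 0. With libraries scaled by their totals alone the 63 calls split into 60 higher and 3 lower. Of the 79 calls, 19 held in each of the 6 fits that left out 1 young library, and the counts of calls in those fits were 30, 33 and 27 without vehicle library 1, 2 and 3 and 36, 70 and 38 without bexarotene library 1, 2 and 3. A fit of the 6 young libraries alone, paired by number, kept 47 of the 79 calls among its 96, and a fit of these libraries unpaired kept 29 among its 36. Each mean, fold change and SE below rests on 3 libraries a group. In bulk libraries a smaller number of cells of one type and less RNA per cell cannot be told apart.

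**Figure D1:**
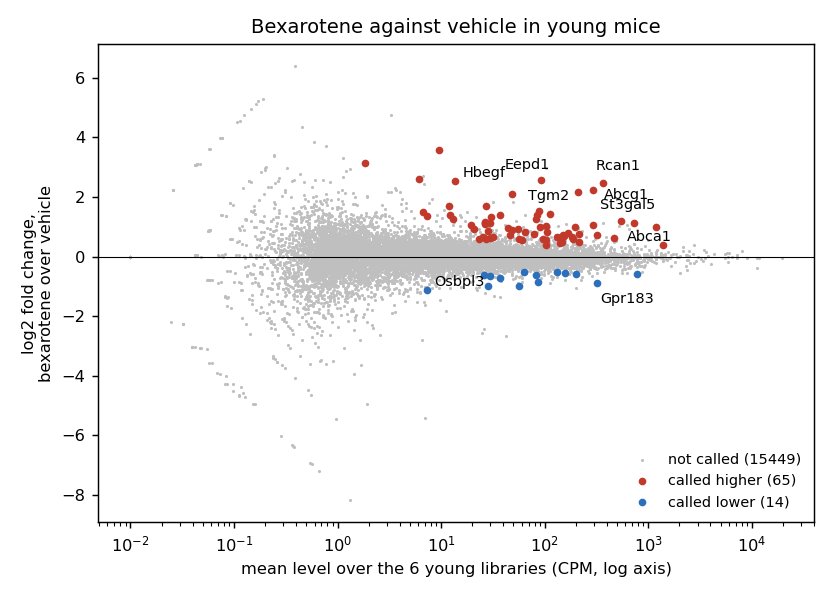
Each point is 1 of the 15528 genes, with its mean level over the 6 young libraries in CPM (log axis) and its log2 fold change of bexarotene over vehicle. The 65 genes called higher (red) and 14 called lower (blue) lie mostly above 10 CPM, while the wide spread at the left comes from genes with few counts and holds few calls.

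The strongest responses belonged to genes that export cholesterol. Abcg1, a transporter that passes cholesterol to lipoprotein particles, stood at 102, 105 and 104 CPM in vehicle libraries 1 to 3 and at 428, 466 and 563 CPM in bexarotene libraries 1 to 3. Its log2 fold change was 2.23 ± 0.14 (SE; adjusted p = 3.21e-08), the lowest p of all genes tested. The 3 vehicle values lay within a few CPM of each other and far below the treated values. Abca1, which loads cholesterol and phospholipid onto apolipoproteins, stood at 568, 425 and 403 CPM with vehicle and 1056, 858 and 1101 CPM with bexarotene, a log2 fold change of 1.11 ± 0.14 (adjusted p = 0.000472). Eepd1, an LXR-induced protein of the endonuclease/exonuclease/phosphatase family that promotes Abca1-dependent export, rose most of these, from 24.5, 30.8 and 24.3 CPM to 191, 100.5 and 182 CPM (2.58 ± 0.27, adjusted p = 0.000139). For Eepd1 the second treated library was well below the other treated libraries, yet still far above every vehicle library. Arl4c, a small GTPase of the LXR programme, went from 51.0, 40.9 and 49.0 CPM to 64.6, 95.3 and 89.7 CPM (0.82 ± 0.15, adjusted p = 0.0152). Abcg1, Abca1 and Eepd1 passed in each of the 6 fits that left out 1 young library. Arl4c passed without vehicle library 1 or bexarotene library 1 and missed the threshold without any of the other 4 (adjusted p up to 0.0906). In the paired fit of the 6 young libraries alone, Abcg1 and Abca1 passed, and Eepd1 (adjusted p = 0.0577) and Arl4c (0.0821) did not.

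Of 15 LXR-RXR targets tested, these 4 were called higher, against 0.419% of all genes, and none lower. The list's median log2 fold change was 0.13. None of the other 11 passed the test. Mylip, an LXR-induced ubiquitin ligase, was at 305, 305 and 288 CPM with vehicle and 352, 545 and 534 CPM with bexarotene, with no overlap (0.67 ± 0.16, adjusted p = 0.0794). It passed with DESeq2 (adjusted p = 0.0115) and not with limma voom (adjusted p = 0.117). Srebf1, the LXR-driven regulator of fatty acid synthesis, was at 53.5, 54.5 and 52.0 CPM and 60.6, 57.5 and 52.9 CPM (0.10 ± 0.12), and Fasn, a gene it drives, had a log2 fold change of -0.30 ± 0.25. Apoe, the main lipoprotein component of the brain, was at 1699, 2229 and 1831 CPM with vehicle and 2355, 2574 and 2222 CPM with bexarotene, and the ranges overlapped (0.31 ± 0.23, adjusted p = 0.814). Scd2, a desaturase, was lower in all 3 treated libraries without passing the test (-0.58 ± 0.17, adjusted p = 0.205). No fatty acid synthesis gene of the list was called.

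A pair of called genes outside that list also act on cholesterol inside the cell. Gramd1b, which carries cholesterol from the plasma membrane to the endoplasmic reticulum, rose from 7.25, 2.97 and 6.54 CPM to 19.3, 17.4 and 18.5 CPM (1.69 ± 0.29, adjusted p = 0.00898). Rnf145, a sterol-responsive ubiquitin ligase of the endoplasmic reticulum, rose from 213, 263 and 249 CPM to 399, 395 and 389 CPM (0.71 ± 0.10, adjusted p = 0.000999). The 3 treated Rnf145 values were almost equal. Both genes passed in all 6 fits that left out 1 library. By contrast, none of 23 genes of cholesterol synthesis and uptake tested was called by edgeR or by DESeq2, and none reached an unadjusted p under 0.05 with either tool. Their median log2 fold change was 0.02. Sqle, squalene epoxidase, stood at 7.25, 7.69 and 5.32 CPM and 8.42, 8.95 and 6.95 CPM, and Hmgcs1, which makes a precursor of mevalonate, at 46.6, 45.3 and 46.8 CPM and 48.1, 42.5 and 39.0 CPM. The members with the lowest p were Mvk (-0.70 ± 0.35) and Dhcr7 (0.35 ± 0.17).

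RXR pairs bind direct repeats of the half-site AGGTCA, and promoter sequences of genes that rose are shown to let a reader see how near their letters come to such repeats. The search covered 300 bases per promoter (250 before to 50 after the start, RefSeq, GRCm38.p6), both strands, spacings of 1, 2, 4 and 5 bases between the half-sites (DR1, DR2, DR4 and DR5) and at most 2 mismatches over the 12 half-site bases; a promoter holding several repeats counts under each. Of the 79 called genes, 64 had an entry. The windows below are 60 bases each, read along the gene's strand, with the half-sites in capitals. Abca1 is shown as the called exporter with an entry, at 3 mismatches. Epha2, Fblim1 and Ccl6 rose and hold repeats within the limit of 2 mismatches.
Abca1 (chr4:53159925-53159984, minus strand): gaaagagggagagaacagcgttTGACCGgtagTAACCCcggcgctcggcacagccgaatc
Epha2 (chr4:141301161-141301220, plus strand): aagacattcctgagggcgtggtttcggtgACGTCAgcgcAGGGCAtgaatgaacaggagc
Fblim1 (chr4:141606053-141606112, minus strand): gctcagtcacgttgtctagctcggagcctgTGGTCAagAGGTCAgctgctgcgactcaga
Ccl6 (chr11:83593140-83593199, minus strand): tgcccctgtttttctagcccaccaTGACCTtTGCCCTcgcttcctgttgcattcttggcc
The Abca1 repeat is a DR4 on the opposite strand, 67 to 52 bases before the start, where the half-sites read as their reverse complement. The Epha2 repeat is a DR4 with 2 mismatches, 31 to 16 bases before the start. The Fblim1 repeat is a DR2 with 1 mismatch, 30 to 17 bases before the start, and the Ccl6 repeat is a DR1 with 1 mismatch on the opposite strand, 88 to 76 bases before the start. Any of the 4 repeats was found in 8 of 51 promoters of genes called higher (15.7%), 1 of 13 called lower (7.69%), 10.1% of promoters of genes tested and 12.8% of all 27025 genes with an entry. A DR4 within 3 mismatches, a limit set after Abca1 showed no match at 2, was found in 20 of the 51 (39.2%), 2 of the 13 (15.4%), 21.4% of genes tested and 24.5% of all genes. These matches describe letters in a short window, and binding was not measured.

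Among retinoic acid targets and retinoid enzymes, 6 of 15 were tested and 1 was called, against 0.509% of all genes. Tgm2, a transglutaminase that crosslinks proteins and is a classical retinoid-induced gene of macrophages, stood at 74.8, 79.7 and 78.0 CPM with vehicle and 294, 316 and 420.4 CPM with bexarotene. The vehicle values were close together and every treated value was over 3 times as high as any of them. The log2 fold change was 2.15 ± 0.27 (adjusted p = 0.000873), and the call held without any 1 library. Dhrs3, a retinaldehyde reductase induced by retinoic acid, was at 202, 218 and 221 CPM and 260.0, 278 and 294 CPM, with no overlap (0.38 ± 0.09, adjusted p = 0.0816). It passed with DESeq2 (adjusted p = 0.0169) and not with limma voom (adjusted p = 0.097). The retinoic acid hydroxylases Cyp26a1 and Cyp26b1 and the receptor gene Rarb had at most 3 counts in any of the 6 libraries, and no fold is given for them.

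PPAR targets and fatty acid genes showed 1 call among 20 tested, against 0.509% of all genes. Cpt1a, the carnitine acyltransferase that admits long-chain fatty acids to mitochondria, rose from 60.9, 54.6 and 60.7 CPM to 106, 79.7 and 112 CPM (0.76 ± 0.14, adjusted p = 0.0152). It passed without bexarotene library 2 and missed the threshold without any of the other 5 libraries (adjusted p up to 0.0856). The fold changes of the list were above 0 in 19 of the 20 genes, and in 8 the treated libraries lay above all vehicle libraries, against 7.09% of all genes. The list's median was 0.25, and 6 members had an unadjusted p under 0.05, against 8.37% of all genes. Without both libraries numbered 1, 16 of the 20 were positive, the median was 0.13, and 2 members had an unadjusted p under 0.05. Ucp2, a mitochondrial carrier, had the values 408, 647 and 575 CPM with vehicle and 1406, 817 and 791 CPM with bexarotene, library 1 being the highest by far (0.89 ± 0.23, adjusted p = 0.121). The carnitine carrier Slc25a20 was at 23.7, 23.9 and 23.0 CPM and 28.1, 34.4 and 30.7 CPM (0.40 ± 0.16). Angptl4, an inhibitor of lipoprotein lipase, was barely expressed, at 0.763, 0.135 and 1.13 CPM and 3.39, 1.67 and 2.19 CPM (1.73 ± 0.62, adjusted p = 0.372). Cd36, the fatty acid and scavenger receptor, overlapped between groups (0.28 ± 0.16), and so did Pdk4 (0.73 ± 1.27), which was below 3 CPM throughout. A pair of called genes of mitochondrial metabolism lie outside the list. Acss1, the mitochondrial acetyl-CoA synthetase, rose from 126, 116 and 127 CPM to 238, 166 and 228 CPM (0.77 ± 0.13), and Esrra, an orphan nuclear receptor of energy metabolism, rose from 22.8, 21.8 and 26.4 CPM to 37.2, 35.2 and 36.5 CPM (0.61 ± 0.11). Acss1 missed the threshold without vehicle library 2 or bexarotene library 1 (adjusted p up to 0.0548). Esrra missed it without vehicle library 1 or 2 or bexarotene library 1 or 3 (adjusted p up to 0.117), and in the paired fit of the 6 young libraries (adjusted p = 0.0682).

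The receptors themselves did not change detectably. None of the 19 RXR and partner receptor or cofactor genes tested was called by edgeR or DESeq2, and 1 had an unadjusted p under 0.05 with each. Rxra was at 92.9, 90.8 and 93.8 CPM with vehicle and 99.2, 85.4 and 77.0 CPM with bexarotene (-0.09 ± 0.11), and Rxrb at 97.4, 111 and 113 CPM and 122, 102 and 104 CPM (0.03 ± 0.10). The groups overlapped in both genes. Rxrg stayed under 2 CPM in every library (2.35 ± 0.81, adjusted p = 0.333). Of the LXR genes, Nr1h2 (LXR beta) was at 60.9, 64.7 and 62.5 CPM and 74.4, 70.2 and 62.2 CPM, and Nr1h3 (LXR alpha) at 1.53, 0.944 and 1.83 CPM and 1.85, 1.55 and 1.05 CPM. Pparg remained under 2 CPM, and Ppara had at most 2 counts in any of the 6 libraries.

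The oxysterol list was the only one with 2 calls on the lower side, where all genes tested gave 0.0902%. Gpr183, the receptor through which immune cells follow oxysterol gradients, stood at 448, 371 and 431 CPM with vehicle and 169, 255 and 248 CPM with bexarotene. It fell by a log2 fold change of -0.90 ± 0.14 (adjusted p = 0.00550), to 0.537 of the vehicle level, and was the single gene called lower in all 6 fits that left out 1 library. Fitted in the 6 young libraries alone, its adjusted p was 0.0856 with libraries paired and 0.0679 unpaired. Osbpl3, an oxysterol-binding-protein relative at membrane contact sites, fell from 9.35, 10.4 and 10.6 CPM to 5.65, 4.42 and 3.81 CPM (-1.13 ± 0.24, adjusted p = 0.0368), the largest fall of all calls. It missed the threshold without any 1 of the 6 libraries (adjusted p up to 0.169), and in the paired fit of the 6 young libraries (adjusted p = 0.0785). The other 10 members tested were not called. Cyp27a1, which makes 27-hydroxycholesterol, was at 80.3, 72.7 and 72.8 CPM and 87.2, 78.0 and 81.2 CPM. Ch25h, which makes the precursor of the main Gpr183 ligand, was near the detection limit at 0.668, 0.539 and 2.01 CPM and 0.411, 1.43 and 0.476 CPM.

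Secreted factors and surface receptors made up a second group of strong risers. Hbegf, a ligand of the EGF receptor, rose from 4.20, 4.72 and 3.14 CPM to 18.5, 26.6 and 24.6 CPM (2.54 ± 0.35, adjusted p = 0.00121). It was scarce in every vehicle library. Hbegf was the only one of 15 growth factors tested to be called, against 0.509% of all genes, and its call held without any 1 library. Csf1, the survival factor of microglia, was at 14.1, 22.9 and 17.6 CPM and 27.7, 25.3 and 37.8 CPM, without overlap and without a call (0.75 ± 0.27, adjusted p = 0.380). Epha2, an ephrin receptor kinase, rose from 11.8, 13.2 and 12.8 CPM to 44.9, 37.1 and 41.8 CPM (1.71 ± 0.17, adjusted p = 3.79e-05), with little spread in either group. Sema4c, a membrane-bound semaphorin that signals through plexins, rose from 65.9, 59.1 and 56.4 CPM to 175, 91.8 and 96.1 CPM (1.00 ± 0.22, adjusted p = 0.0490), with library 1 far above the other treated libraries. With all 18 libraries paired by number its adjusted p was 0.0618, and in the paired fit of the 6 young libraries alone it was 0.0318. Of the 6 fits that left out 1 young library, Sema4c passed only without bexarotene library 2 or 3. Nrp2, a co-receptor for class 3 semaphorins, fell from 40.9, 40.0 and 28.4 CPM to 23.0, 22.3 and 23.5 CPM (-0.66 ± 0.14, adjusted p = 0.0441, or 0.0580 with libraries paired). Its call was lost without 5 of the 6 libraries, vehicle library 3 being the exception (adjusted p up to 0.187), and in the paired fit of the young libraries alone (adjusted p = 0.106). These were the 3 calls among 18 guidance genes tested, against 0.509% of all genes. The median of the 18 was 0.01.

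Regulators of calcium signalling gave 2 calls of 18 tested, against 0.509% of all genes. Rcan1, an inhibitor of the phosphatase calcineurin, went from 63.7, 169.8 and 97.6 CPM to 939, 551 and 354 CPM (2.48 ± 0.47, adjusted p = 0.0369). Its treated values fell apart widely, with library 1 over 2 times library 3, although all lay above the vehicle values. With libraries paired by number the adjusted p was 0.0554, and leaving out any library but bexarotene 3 ended the call (adjusted p up to 0.177), as did fitting the young libraries alone with pairing (adjusted p = 0.393). Camkk1, a kinase that activates the calmodulin-dependent kinases, rose from 24.1, 14.0 and 16.4 CPM to 94.8, 56.8 and 85.2 CPM (2.11 ± 0.26, adjusted p = 0.000472) and passed without any 1 library. The calcineurin subunits and NFAT genes of the list were not called; Nfatc1 was at 275, 270.4 and 257 CPM and 236, 220.1 and 207 CPM (-0.27 ± 0.10, adjusted p = 0.344).

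**Figure D2:**
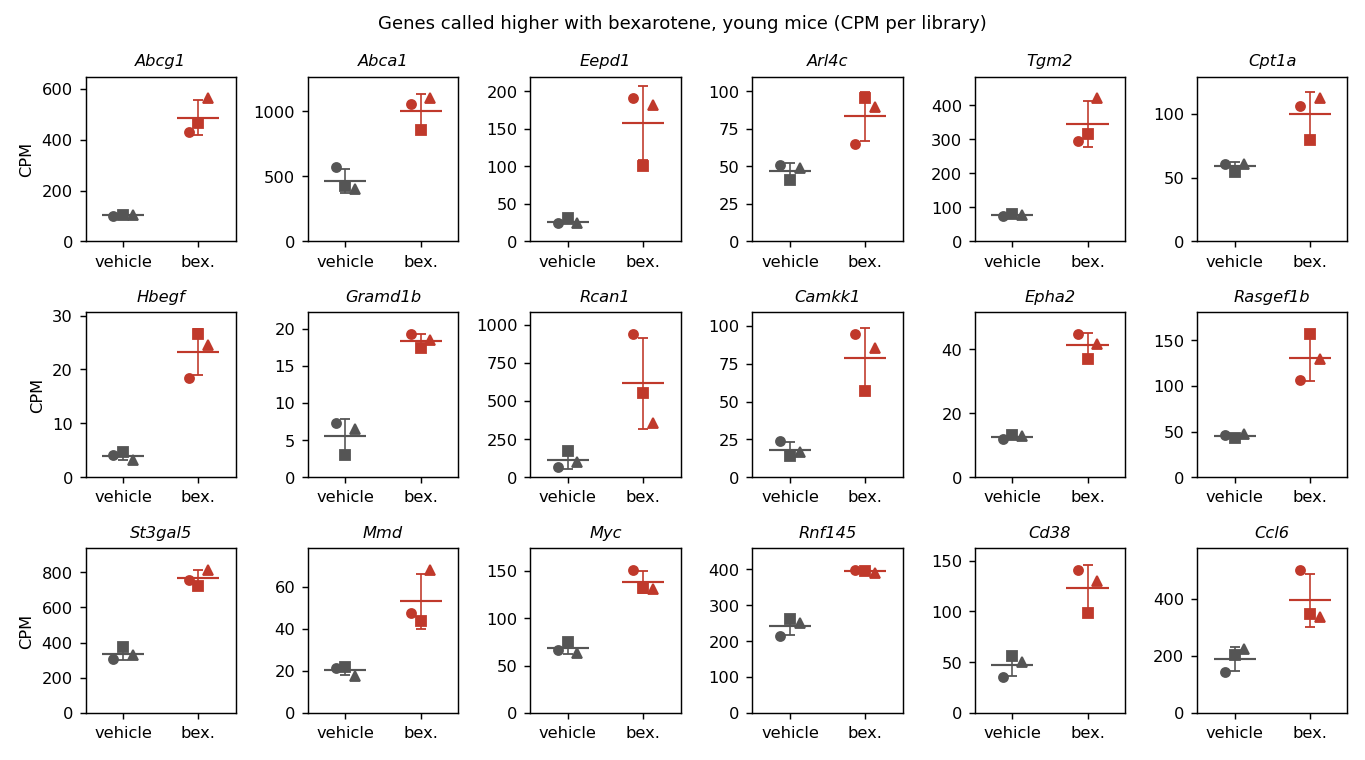
CPM in each young library for 18 genes called higher, with circles, squares and triangles for libraries 1, 2 and 3, a line at the mean and bars of 1 SD (n = 3 per group). In every panel all treated points lie above all vehicle points; the treated values reach from 354 to 939 CPM for Rcan1 and from 389 to 399 CPM for Rnf145.

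Other strong risers were spread over several roles. Rasgef1b, an exchange factor of the Ras family, went from 45.7, 42.5 and 47.6 CPM to 107, 157 and 129 CPM (1.53 ± 0.15, adjusted p = 3.79e-05). St3gal5, the sialyltransferase that makes ganglioside GM3, went from 304, 378 and 329 CPM to 758, 721 and 815 CPM (1.18 ± 0.12, adjusted p = 6.89e-05). Mmd, a membrane protein associated with macrophage differentiation, went from 21.4, 22.0 and 17.5 CPM to 47.6, 43.7 and 68.2 CPM (1.40 ± 0.17, adjusted p = 0.000459). All 3 genes kept their call when any 1 library was left out. Baiap2, an adaptor between membrane curvature and actin, rose from 2.86, 4.18 and 3.49 CPM to 10.6, 8.59 and 10.0 CPM (1.48 ± 0.23). Lfng, a glycosyltransferase that modifies Notch, rose from 60.3, 63.2 and 58.4 CPM to 128, 201 and 160.4 CPM (1.43 ± 0.23), and lost its call without vehicle library 1 or 3 (adjusted p up to 0.0632). Baiap2 kept its call in all 6 such fits. Cd38, an enzyme that consumes NAD, rose from 35.0, 56.5 and 50.3 CPM to 141, 98.3 and 129.8 CPM (1.38 ± 0.27, adjusted p = 0.0298), and passed only without bexarotene library 2 (adjusted p up to 0.162 in the other 5 fits). Paired within the 6 young libraries alone its adjusted p was 0.0856. It was the 1 call among 12 NAD genes tested, against 0.509% of all genes. Osgin1, an oxidative stress response gene, rose from 6.68, 8.50 and 4.89 CPM to 17.9, 18.7 and 15.9 CPM (1.40 ± 0.29), but missed the threshold without any 1 library (adjusted p up to 0.211).

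Transcription factors were also among the calls. Myc, a driver of growth genes, rose from 66.4, 75.4 and 63.1 CPM to 151, 132 and 131 CPM (1.02 ± 0.16, adjusted p = 0.00470). It kept its call in all 6 fits that left out 1 library. Id2, an inhibitor of helix-loop-helix factors, rose from 47.2, 59.1 and 41.1 CPM to 173, 94.8 and 84.0 CPM (1.26 ± 0.23), with library 1 far above the other treated libraries, and missed the threshold without vehicle library 1 or 3 or bexarotene library 1 (adjusted p up to 0.131), and in the paired fit of the young libraries alone (adjusted p = 0.115). Hivep2 (1.35 ± 0.27), Bach2 (0.95 ± 0.20), Klf11 (0.94 ± 0.20) and Mafg (0.64 ± 0.12) rose as well. The treated ranges of these 4 stayed above the vehicle ranges, but each missed the threshold when at least 5 of the 6 libraries were left out in turn (adjusted p up to 0.179 for Bach2 and 0.180 for Klf11). Klf11 also missed it in the paired fit of the young libraries alone (adjusted p = 0.0678).

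On the lower side, 14 genes fell, all but Osbpl3 by less than 2-fold. Prdm1 (Blimp-1), a transcriptional repressor of immune cells, fell from 81.9, 56.9 and 89.1 CPM to 23.8, 49.3 and 42.2 CPM (-0.99 ± 0.21, adjusted p = 0.0441). With libraries paired the adjusted p was 0.0647, and it passed only without vehicle library 2 or bexarotene library 2. Btbd3, a BTB-domain protein, fell from 37.3, 38.6 and 37.2 CPM to 14.9, 22.6 and 19.4 CPM (-0.99 ± 0.18, adjusted p = 0.0156), with vehicle values that were nearly equal. Dynll1, a light chain of the dynein motor, fell from 97.1, 122 and 114 CPM to 44.4, 82.3 and 59.3 CPM (-0.84 ± 0.17). Tbl1xr1, a subunit of the corepressor complex that unliganded nuclear receptors recruit, fell from 117, 90.5 and 89.9 CPM to 63.4, 67.5 and 64.3 CPM (-0.61 ± 0.13). Its treated values were tightly grouped below all vehicle values. Smcr8, a partner of the C9orf72 protein, fell from 57.4, 38.0 and 43.2 CPM to 27.4, 27.0 and 29.8 CPM (-0.72 ± 0.15). The remaining 7, Ccdc82, Bmp2k, Cttnbp2nl, Cep170, Fam107b, Susd6 and Nrp2, had log2 fold changes between -0.66 ± 0.14 and -0.50 ± 0.11. Cep170, a centrosomal protein, had an adjusted p of 0.0554 with libraries paired, against 0.0477 unpaired. Except for Gpr183, each of the 14 missed the threshold without at least 3 of the 6 libraries, with adjusted p up to 0.230 for Cep170, 0.220 for Susd6 and 0.216 for Prdm1. In the paired fit of the 6 young libraries alone Prdm1 (adjusted p = 0.351), Cep170 (0.230), Fam107b (0.0997), Ccdc82 (0.0785), Smcr8 (0.0725) and Tbl1xr1 (0.0597) missed the threshold as well.

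**Figure D3:**
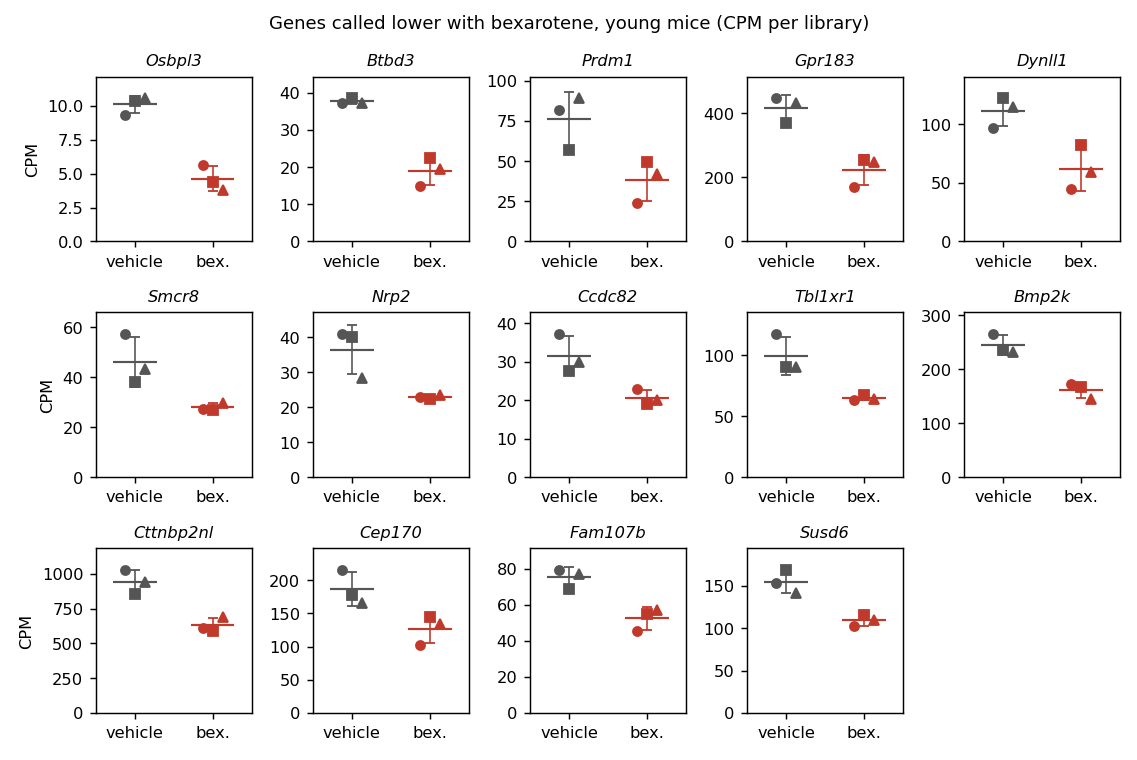
CPM in each young library for the 14 genes called lower, with circles, squares and triangles for libraries 1, 2 and 3, a line at the mean and bars of 1 SD (n = 3 per group). All treated points lie below all vehicle points, from Osbpl3 (at most 10.6 CPM) to Cttnbp2nl (590 to 1031 CPM).

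Few immune genes were called. Of 18 inflammatory mediators tested, 1 was called by edgeR, against 0.509% of all genes. Nlrp3, the inflammasome sensor, rose from 53.0, 49.5 and 45.1 CPM to 69.2, 69.3 and 80.7 CPM (0.57 ± 0.11, adjusted p = 0.0298), a call that was lost without any 1 library (adjusted p up to 0.188) and in the paired fit of the young libraries alone (adjusted p = 0.0785). The fold changes of 14 members were negative, the list's median was -0.41, and 11 members had an unadjusted p under 0.05, where all genes tested gave 8.37%. Without both libraries numbered 1 the median was -0.27 and 6 members had an unadjusted p under 0.05. In 7 members all treated libraries lay below all vehicle libraries (6.01% of all genes), and in 3 above (7.09%). Tnf was at 4.39, 4.05 and 5.76 CPM and 1.44, 1.55 and 3.05 CPM (-1.22 ± 0.34, adjusted p = 0.163), and the receptor Tlr4 at 365, 408 and 346 CPM and 265, 292 and 296 CPM (-0.39 ± 0.14, adjusted p = 0.380). The groups did not overlap in either gene. Il1b ranged widely with vehicle, at 6.58, 34.4 and 89.1 CPM, against 8.83, 5.97 and 9.43 CPM with bexarotene, and the ranges overlapped (-2.42 ± 0.71, adjusted p = 0.245). Il6 went the other way, at 12.9, 8.36 and 9.86 CPM and 23.1, 17.3 and 30.2 CPM (1.18 ± 0.27, adjusted p = 0.0659), and passed with libraries paired by number (adjusted p = 0.0459). DESeq2 called 5 members, Il6 and Nlrp3 higher and Il1b, Ptgs2 and Tnf lower. Over all 15528 genes it called 130 higher and 77 lower. Ptgs2 was scarce, at 0.668, 7.96 and 2.53 CPM with vehicle and 0.308, 0 and 0 CPM with bexarotene. Infiltrating monocyte markers summed to 111, 128 and 302 CPM with vehicle and 69.1, 96.2 and 257 CPM with bexarotene, 11 of their 12 fold changes being negative, and their part in the inflammatory values was not tested.

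Interferon-response genes had small positive fold changes in 17 of 18 members tested, with a median of 0.33 and no call by edgeR or DESeq2. An unadjusted p under 0.05 was reached by 2 members with edgeR, against 8.37% of all genes, and by 3 with DESeq2. Ifit3 was at 18.2, 21.0 and 22.6 CPM and 22.8, 40.8 and 29.0 CPM (0.58 ± 0.25, adjusted p = 0.533), and Usp18 had 0.50 ± 0.21. Of the 21 genes of the disease-associated microglial state 1 was called, against 0.509% of all genes. This was Ccl6, a chemokine of myeloid cells, which rose from 143, 201 and 222 CPM to 501, 347 and 334 CPM (1.06 ± 0.19, adjusted p = 0.0156). It missed the threshold without vehicle library 1 or 2 or bexarotene library 1 (adjusted p up to 0.106), and in the paired fit of the young libraries alone (adjusted p = 0.280). Trem2 was level at 975, 1134 and 1097 CPM and 1004, 1156 and 1066 CPM, and Spp1 overlapped (-0.19 ± 0.65). Among 21 debris uptake receptors none was called by either tool. An unadjusted p under 0.05 was reached by 2, against 8.37% of all genes with edgeR. Mertk was at 907, 935 and 994 CPM and 1136, 1056 and 1115 CPM (0.22 ± 0.13), and Axl at 34.8, 43.4 and 50.3 CPM and 71.1, 55.4 and 66.1 CPM (0.58 ± 0.26, adjusted p = 0.530). The treated libraries lay above the vehicle libraries in both, but neither gene passed the test.

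Homeostatic microglial genes were negative in 15 of 16, with a median of -0.08. With edgeR none was called and 3 had an unadjusted p under 0.05, against 8.37% of all genes. DESeq2 called 1 (Mef2c). Mef2c, a transcription factor of microglial identity, was at 777, 608 and 628 CPM and 429.9, 519.5 and 419 CPM (-0.56 ± 0.13, adjusted p = 0.0705), and passed with libraries paired (adjusted p = 0.0374). P2ry13, a purinergic receptor, was at 2646, 2896 and 2751 CPM and 1575, 2368 and 2068 CPM (-0.46 ± 0.15, adjusted p = 0.252). All treated values of both genes lay below all vehicle values. Tmem119 was the exception in sign, at 0.12 ± 0.13. With libraries scaled by their totals 2 of the 16 were positive.

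**Figure D4:**
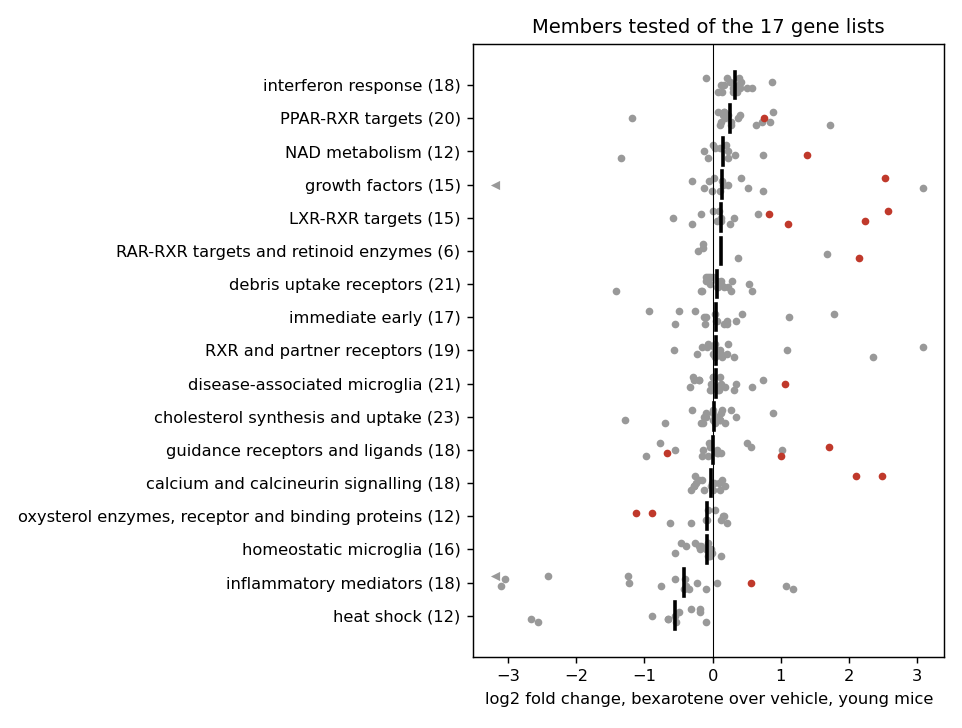
Log2 fold change of each tested member of 17 gene lists in young mice (number tested in brackets), with called members in red, the others in grey, and the list's median as a black bar. Arrowheads at the left edge mark Ptgs2 (-4.96) and Nrg1 (-4.67), which lie off the axis. Each list holds at most 4 called members, and the heat shock and inflammatory lists have the lowest medians (-0.55 and -0.41).

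Heat shock genes, which respond to cell handling, were negative in all 12 members, with a median of -0.55. With edgeR none was called and 4 had an unadjusted p under 0.05, against 8.37% of all genes. DESeq2 called 1 (Dnajb1). Without both libraries numbered 1, all 12 were again negative and 1 had an unadjusted p under 0.05; without both numbered 2, 1 member was positive. Hspa1b was at 98.1, 67.8 and 51.1 CPM with vehicle and 7.29, 17.5 and 9.72 CPM with bexarotene (-2.67 ± 1.03, adjusted p = 0.458), and Dnajb1 at 131, 182 and 129 CPM and 63.0, 111 and 64.5 CPM (-0.89 ± 0.28, adjusted p = 0.280). The groups did not overlap in either gene, but the error for Hspa1b in the present fit was large. The authors' deposited table for the young comparison lists both genes and Hspa1a as lower. It gives Hspa1b a log2 fold change of -2.53 (SE 0.28) and Hspa1a -2.39 (SE 0.32). Immediate early genes, which also respond to handling, had no call among 17 by either tool. With edgeR 3 had an unadjusted p under 0.05, against 8.37% of all genes. Their sum was highest in library 1 of each group, at 4603 and 5564 CPM against 2590 to 3423 CPM in the other 4. Library 1 was also the highest treated library for the called genes Rcan1, Id2, Sema4c and Ccl6, and its part in those values was not tested beyond the fits without it. Without both libraries numbered 1 there were 20 calls, all of them among the 79, and without both numbered 2 or 3 there were 32 and 15.

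No marker of the 11 other cell types examined was called by edgeR. The astrocyte sum was higher with bexarotene, at 304, 424 and 368 CPM against 909, 584 and 667 CPM, and nearly all of it was Slc1a3, a glutamate transporter (286, 388 and 353 CPM and 888, 555 and 659 CPM; 1.03 ± 0.27, adjusted p = 0.139, called by DESeq2). Of the 8 astrocyte markers 5 had negative fold changes and the median was -0.39, and the defining marker Gfap was under 1 CPM in all 6 libraries. Border-associated macrophage markers had no call and a median of 0.16. Of the 12, 2 had an unadjusted p under 0.05, against 8.37% of all genes. In 4 the treated libraries lay above all vehicle libraries, against 7.09% of all genes. Neuronal and pericyte or fibroblast markers summed to at most 6.26 CPM in any library.

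The other calls had smaller changes. Fblim1, a filamin-binding adaptor, rose from 12.3, 11.1 and 14.0 CPM to 23.1, 21.1 and 34.0 CPM (1.06 ± 0.17). Slc7a7, a cationic amino acid exchanger, had one of the smallest errors, rising from 127, 154 and 149 CPM to 242, 209.5 and 229 CPM (0.66 ± 0.08, adjusted p = 0.000459). Both kept their call in every fit that left out 1 library. Slc43a2, a neutral amino acid transporter, rose by 0.70 ± 0.15 (adjusted p = 0.0441, or 0.0581 with libraries paired), with library 1 the highest. Smaller calls included Ltc4s, the leukotriene C4 synthase (0.54 ± 0.09), Abcc3, an organic anion pump (0.61 ± 0.13), and Dnase2a, the lysosomal DNase, with the smallest called change (0.39 ± 0.08). Signalling genes included Il21r, the interleukin 21 receptor (0.77 ± 0.17), the ARF regulators Cyth4 (0.40 ± 0.08) and Adap2 (0.57 ± 0.11), and Pik3cb, a catalytic PI3-kinase subunit (0.46 ± 0.10). Slc43a2 missed the threshold without any vehicle library or bexarotene library 1 (adjusted p up to 0.248), and Dnase2a and Pik3cb without any 1 library (adjusted p up to 0.242 and 0.177). Il21r, Cyth4, Adap2 and Abcc3 each missed it in 5 of the 6 such fits (adjusted p up to 0.243, 0.215, 0.177 and 0.209). Ltc4s missed it in 3 (adjusted p up to 0.102). Paired within the young libraries alone, Slc43a2 (0.0785), Dnase2a (0.1005), Il21r (0.0725) and Cyth4 (0.0889) had adjusted p above 0.05. The long noncoding RNAs E230001N04Rik (2.59 ± 0.54) and AI427809 (3.15 ± 0.69) had large fold changes from few reads, the latter at 0.668, 0 and 0.349 CPM and 0.924, 3.34 and 5.72 CPM. AI427809 missed the threshold with libraries paired (adjusted p = 0.0576). Each of these RNAs lost its call in 5 of the 6 fits that left out 1 library (adjusted p up to 0.223 and 0.226). In an older annotation, 33 of the 79 genes overlap a gene on the opposite strand, and without stated strand handling such reads cannot be told apart. The share with such an overlap over all genes tested was not taken, so the 33 cannot be called many or few.

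In aged mice without stroke the same drug gave 40 calls (0.258%), 37 higher (0.238%) and 3 lower (0.0193%), beside 1012 genes (6.52%) with an unadjusted p under 0.05, and 26 genes were called in both ages, all in the same direction. These are 32.9% of the young calls and 65% of the aged calls. All 65 genes called higher in young mice had a positive fold change in aged mice, and 13 of the 14 called lower had a negative one, Fam107b being the exception (0.15 ± 0.10). Abcg1 had the same log2 fold change at both ages (2.23 ± 0.14 young, 2.23 ± 0.14 aged), and so nearly did Tgm2 (2.15 ± 0.27 and 2.14 ± 0.27), Eepd1 (2.58 ± 0.27 and 2.49 ± 0.27) and St3gal5 (1.18 ± 0.12 and 1.22 ± 0.12). Other young calls were smaller in aged mice without a call there: Fblim1 was 1.06 ± 0.17 in young and 0.11 ± 0.16 in aged mice, Id2 1.26 ± 0.23 and 0.34 ± 0.23, Myc 1.02 ± 0.16 and 0.36 ± 0.16, and Osbpl3 -1.13 ± 0.24 and -0.06 ± 0.23. Over the 65 genes the median was 0.95 in young and 0.64 in aged mice, and 58 were smaller in aged mice. The 65 were chosen by their young values, which favours this direction; of the 37 genes called higher in aged mice, 18 were smaller in young mice. When the difference between ages was itself tested, edgeR called 0 genes (0.00%, with 456, or 2.94%, at an unadjusted p under 0.05; among the 79 young calls these were 15, or 19.0%), limma voom 0 and DESeq2 3, none of which was a young call. The median SE of that difference over the 79 genes was 0.210, so a difference of that order could not be detected.

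After stroke in aged mice there were 9 calls (0.0580%), 8 higher (0.0515%) and 1 lower (0.00644%), with 6.36% of genes at an unadjusted p under 0.05. Of these calls, 6 were young calls in the same direction (7.60% of the young and 66.7% of the stroke calls). Abcg1, Epha2, Mmd, St3gal5 and Rnf145 were among those called in all 3 settings. Rnf145 was 0.71 ± 0.10 in young mice and 0.55 ± 0.10 after stroke. Of the 65 genes called higher in young mice, 61 were positive after stroke with a median of 0.39, and all 65 were smaller there than in young mice, again a comparison of genes chosen by their young values. Of the 8 genes called higher after stroke, 2 were smaller in young mice. Eepd1 was 2.58 ± 0.27 in young mice and 0.93 ± 0.25 after stroke, Abcg1 2.23 ± 0.14 and 1.28 ± 0.13, Cd38 1.38 ± 0.27 and 0.00 ± 0.25, and Fam43a 1.16 ± 0.24 and -0.36 ± 0.23. The test of the difference called 0 genes with edgeR (0.00%, with 690, or 4.44%, at an unadjusted p under 0.05; among the 79 young calls, chosen by their young values, these were 44, or 55.7%) and 0 with limma voom. DESeq2 called 4, all with a lower signed log2 fold change after stroke than in young mice. The differences were -0.94 for Abcg1 (adjusted p = 0.0259), -1.63 for Eepd1 (0.0320), -0.90 for Tpst1 (0.0259) and -2.21 for Sspn (0.0320). Tpst1 was positive in young mice and negative after stroke. Age and stroke both differ between these settings and cannot be told apart.

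**Figure D5:**
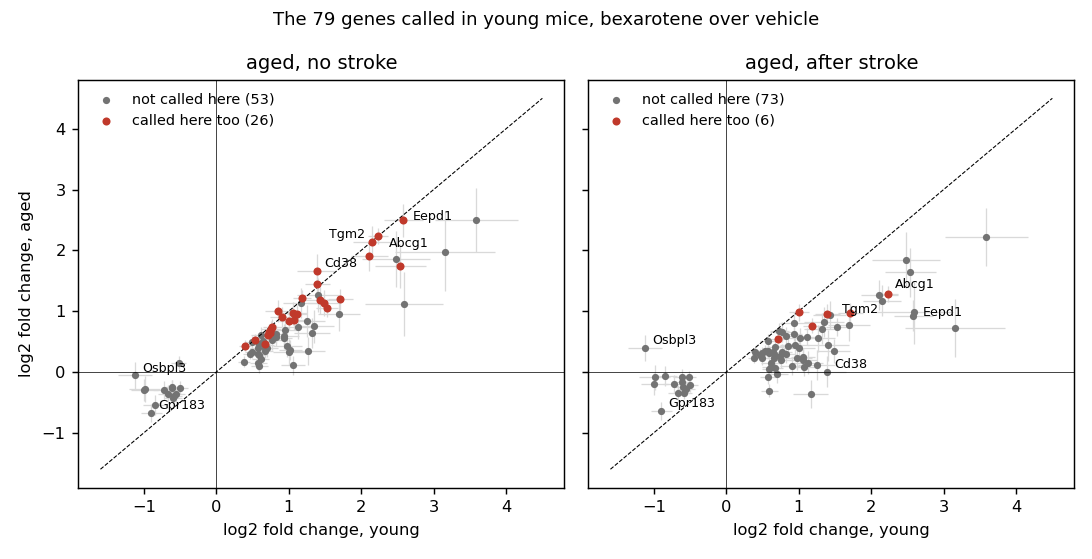
Log2 fold change of bexarotene over vehicle for the 79 genes called in young mice (horizontal axis) against aged mice without stroke (left panel) and aged mice after stroke (right panel), with bars of 1 SE and the line of equality dashed. Red marks genes also called in that setting (26 and 6); after stroke all 65 genes called higher lie below the line, and Fam43a, Slc43a2, Tpst1, Ttyh3 and Osbpl3 lie on the other side of 0.

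The authors' deposited table for the young comparison listed 197 genes, 127 higher and 70 lower, all with the same sign in the fit used here. It held 75 of the 79 calls; Dnase2a, 1810043G02Rik, Tpst1 and Ccdc82 were not in it. Of the 122 genes listed there and not called here, 120 had an unadjusted p under 0.05 in the present fit and 119 did not overlap between groups. In the authors' deposited table Abcg1 had a log2 fold change of 2.20 (SE 0.12), against 2.23 ± 0.14 here.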

How the data were processed

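RNA of microglia and macrophages selected with CD11b beads was measured in 18 libraries (6 groups of 3) made with SMART-Seq V4 PLUS, per the labels. The authors deposited a table of raw counts per gene and, for the young comparison, a table of mean normalized counts (a signal averaged over libraries), log2 fold changes and p-values. The submitters' processing notes name Trimmomatic 0.40, STAR 2.7.10a, GATK, R 4.4.2 and GRCm39. The sources used here do not give their roles, the annotation or whether counting used strand. Genes passing filterByExpr were fitted in all 18 libraries with edgeR 4.0.16 (TMM scaling, robust quasi-likelihood test, R 4.3.3), and p-values were adjusted by Benjamini-Hochberg over the 15528 genes tested. SEs were derived from the fitted change and its test statistic. CPM values use TMM-scaled library sizes. Alternatives used DESeq2 1.42.0 and limma 3.58.1 (voom), and the fit was checked on simulated data. Some fits paired libraries by number, since each same-number correlation of the young libraries was above 0.1. Unless the young libraries alone are named, a paired adjusted p came from a fit of all 18 libraries. That fit gave each number 1 effect shared by young, aged and stroke libraries. The labels do not state a pairing, and over all groups 27 of 45 same-number pairs exceeded 0.1. The main fit was unpaired, and its p-values rest on a spread between libraries estimated from all 18, aged and stroke libraries included. Named genes were the 20 called higher and 15 called lower with the largest change and at least 10 CPM in the higher group, called list members, the lowest-p members of lists without a call, and fixed genes of the drug and its receptors. Members named beyond this rule, such as Ucp2, Scd2, Sqle, Hmgcs1, Tnf, Il1b, Tlr4 and Csf1, were chosen after their values were seen. The members and lists were chosen with earlier results of these data known. Values of some called genes and list members are not reported here.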

Additional observations from a re-analysis of the deposited data

How the results depend on the processing

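In young mice the count of calls was 79, against 207 with DESeq2 (130 higher and 77 lower, with all 79 among them), 457 without a low-count filter (226 higher and 231 lower, 75 shared) and 121 with at least 50 counts required (92 higher and 29 lower). With limma voom there were 54 calls (46 higher and 8 lower, 52 shared), and 27 of the 79 were lost. Among those lost were Baiap2 (adjusted p = 0.0516), Osgin1 (0.0851), Sema4c (0.0744) and Hivep2 (0.138). The 12 libraries without stroke gave 73 calls, 55 of them shared. Estimating the spread from the 6 young libraries alone gave 36 calls, and adding the replicate block to that fit gave 96 (64 higher and 32 lower, 47 shared). With libraries paired by the replicate block in all 18 libraries there were 88 calls, 72 of them shared. The block ended 7 calls and made 2 among the named genes, each given with its gene, and changed no other call among them; the block in the young libraries alone ended more, given with their genes. Scaling by library totals gave 63 calls (95.2% higher, against 82.3%). Leaving out 1 young library gave 27 to 70 calls, and leaving out both libraries of one number, an alternative chosen after seeing the data, gave 20, 32 and 15. For the difference between ages, DESeq2 called 3 genes, the fit without a filter 138, and fits leaving out 1 library 0 to 1. For the difference between young mice and aged mice after stroke these were 4, 166 and 0. The cause of these differences was not tested. No called gene changed sign under any alternative. Alternatives were run gene by gene for only some of the uncalled genes with values above, and of those Nr1h3, Rxrb and Pdk4 changed sign under some. On simulated counts, the test recovered 28.4% of 1.5-fold, 86.6% of 2-fold and 100% of 4-fold changes, so most 1.5-fold changes were missed there. Changes were placed only in genes above a minimum level. The simulated spread followed the level alone, without a spread of each gene's own or a deviation shared by library number. These shares therefore do not carry over to scarcer or more variable genes of the real libraries.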
